A study of Mus musculus with 141 samples.

Results

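Whole kidneys of 47 strains of the Collaborative Cross were compared by a score of 3 tubule genes, a proxy for the share of medulla in the organ. The kidneys were chosen by a score, the mean of log2(CPM + 1) of Umod, Slc12a1 and Aqp2, where CPM is the usual depth-scaled value, a gene's expected count relative to the library total, here taken without Rn45s, the ribosomal RNA precursor. The 16 kidneys with the highest score were set against the 16 with the lowest, so that 32 of the 47 kidneys, out of 141 libraries of kidney, liver and lung, were compared, and the 15 kidneys between them served as a reference. Because the kidney libraries themselves set the score, the kidney differences are a description with no test. The liver and lung libraries of the same mice took no part in the choice and were tested.

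Collaborative Cross strains are recombinant inbred mice bred from 8 founder strains, and each strain was represented by 1 male, so that strain and individual cannot be told apart. All mice were 8 to 12 weeks old and had spent 6 hours of each weekday over 2 weeks in chambers with clean air. No cortex or medulla was dissected, and nothing but the RNA shows how each kidney was composed. No label gives a batch.

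The outer shell of the kidney, the cortex, holds the glomeruli, where podocytes filter the blood, and the convoluted tubules that take back most of the filtrate. The medulla holds the straight ends of the proximal tubules (segment S3), the loops of Henle and the collecting ducts. The thick ascending limb of the loop pumps salt out of the urine without water, and thin limbs and inner collecting ducts pass urea, so that the inner tissue becomes hypertonic and cells there gather organic osmolytes. Umod encodes uromodulin and Slc12a1 the sodium, potassium and chloride cotransporter of the thick ascending limb, and Aqp2 encodes the water channel of collecting duct principal cells, which also run through the cortex.

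Several osmolyte genes are known to be switched on through tonicity-responsive elements (TonE), which the factor Nfat5 binds, and the RefSeq promoter windows of 2 of them (GRCm38.p6, 250 bases before to 50 after a start) are shown because they gave the largest differences of their list below. The betaine transporter gene Slc6a12 has 5 such windows, and the single one with a TonE match lies on the plus strand at chr6:121342324-121342623. Its match, in capitals, begins 75 bases before the start. The myo-inositol transporter gene Slc5a3 has 1 window, on the plus strand at chr16:92058072-92058371, without a match.
Slc6a12: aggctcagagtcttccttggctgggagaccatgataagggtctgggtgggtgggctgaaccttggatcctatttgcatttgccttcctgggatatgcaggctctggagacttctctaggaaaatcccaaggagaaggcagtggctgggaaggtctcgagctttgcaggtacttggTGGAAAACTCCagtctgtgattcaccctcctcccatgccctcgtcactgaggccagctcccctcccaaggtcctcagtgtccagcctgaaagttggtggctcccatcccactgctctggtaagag
Slc5a3: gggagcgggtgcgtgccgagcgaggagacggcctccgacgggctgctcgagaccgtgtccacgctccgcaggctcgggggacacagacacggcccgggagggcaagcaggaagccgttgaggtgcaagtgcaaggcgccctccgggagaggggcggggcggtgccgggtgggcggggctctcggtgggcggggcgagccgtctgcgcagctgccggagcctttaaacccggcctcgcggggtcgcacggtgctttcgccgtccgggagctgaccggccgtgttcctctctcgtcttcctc

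Both strands were searched. A TonE match was present in a promoter window of 5.74% of the 27025 genes with one, in 2 of the 5 osmolyte genes with one (Slc6a12 and Pnpla6) and in 0 of 9 genes of the thick ascending limb. The MHC class II and plasma cell genes also had it in 2 of 5 (H2-DMb1 and Jchain). A match is a description of letters in the window and nothing was tested with it.

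The score ran from 4.19 in strain CC059 to 7.11 in strain CC032 without a gap at either boundary. On the low side it reached 5.27 (CC062) and the next kidney above stood at 5.37 (CC025). On the high side the lowest kidney stood at 5.82 (CC005) and the next below at 5.81 (CC042), so the upper boundary separates kidneys that hardly differ. CC032 stood apart at the top, since the kidney after it (CC002) had 6.54. The scoring genes did not order the kidneys alike. A score from Umod and Slc12a1 alone kept 15 of the 16 low and 14 of the 16 high kidneys, and a score from Aqp2 alone kept 9 and 10.

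**Figure D1:**
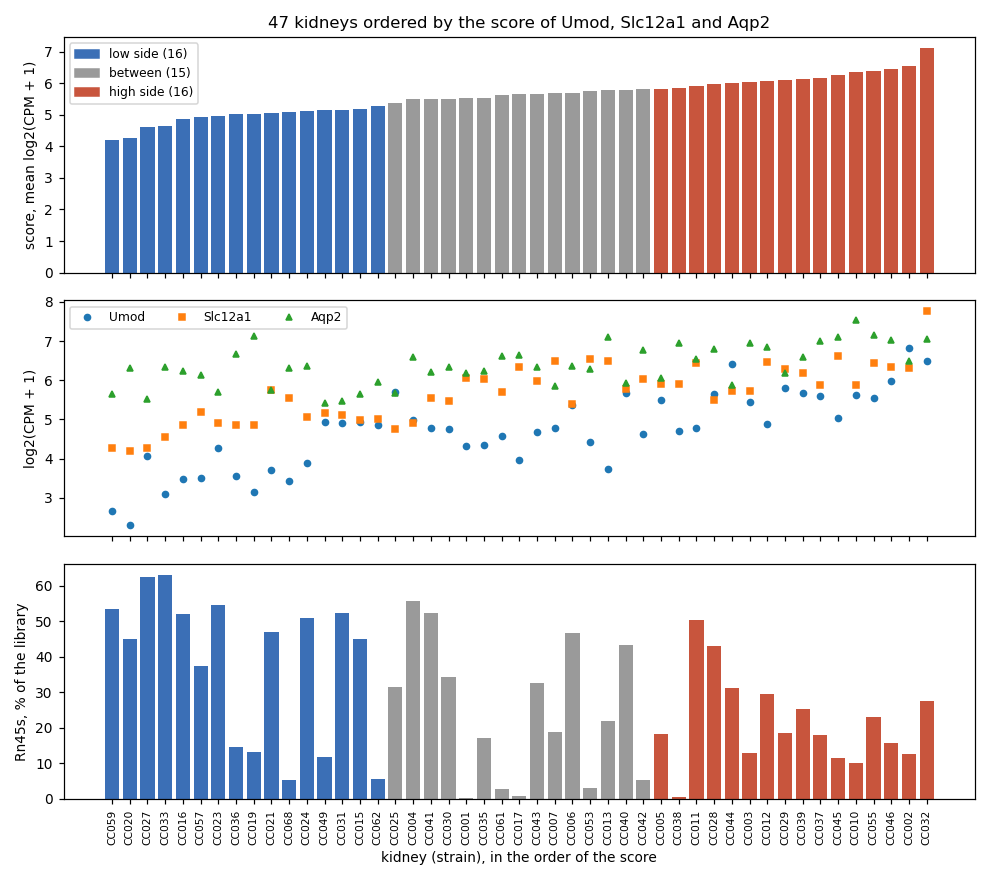
The 47 kidneys from the lowest to the highest score: bars of the score, points of the 3 scoring genes in log2(CPM + 1), and bars of the share of each library taken by Rn45s in percent. The low side ends at 5.27 and the high side begins at 5.82, and 11 of the 16 low kidneys stand above 30% Rn45s against 3 of the 16 high ones.

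The libraries differed in ribosomal RNA along with the score. Kidney libraries held 3046695 to 15028553 counts. Rn45s took a median of 46.01% of them on the low side (range 5.40% to 63.1%), 21.9% between and 18.4% on the high side (0.509% to 50.5%). Lars2, annotated as the mitochondrial leucyl-tRNA synthetase, moved in the same direction and held a median of 25.4% of the remaining counts on the low side against 8.17% on the high side. Lars2 stayed in the total behind each CPM and took more of it in the low kidneys. Of 11849 genes that passed the low-value filter, 10603 were higher in the high kidneys, and the median difference of mean log2(CPM + 1) was 0.24 (quartiles 0.13 and 0.33). With TMM scaling that median was 0.02. Kidney differences below are high minus low in mean log2(CPM + 1) ± the standard error over 16 and 16 kidneys. An excess, where given, is the difference relative to the 0.24 of all genes. A difference printed without an excess still contains that 0.24. The part of ribosomal RNA in the gene differences was not tested. Beside the lists, medians are given for the 5 low and 13 high kidneys with under 30% Rn45s, and for a score on totals without Lars2 and Mir6236, which chose sides with like Rn45s medians (27.4% and 26.6%).

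Few genes separated the sides by a large amount. At least 2-fold higher in the high kidneys were 29 genes (0.245% of those compared) and at least 2-fold lower were 9 (0.076%), and 0 genes (0%) had sides without overlap. With TMM scaling these counts were 11 higher and 17 lower, which turns the balance between the directions. An excess of at least 0.25 above the median of all genes was shown by 649 genes (5.48%) and of at least 0.25 below it by 1199 genes (10.1%). Gene lists are described against these shares.

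Genes of the thick ascending limb were the list with the highest median, and all 12 of its 14 members that passed the filter exceeded the median of all genes. Their median excess was 0.40 (range 0.13 to 0.80), 8 of the 12 lay at least 0.25 above and 0 below. Since RNA of whole organs was measured, more cells of this segment and more RNA per cell cannot be told apart. These genes share their segment with 2 of the scoring genes.

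Ptger3, the prostaglandin E2 receptor EP3 of the limb, gave the largest difference of the list. It ran from 12.5 to 34.5 CPM (median 25.4) in the low kidneys, had a median of 42.1 CPM in the kidneys between and ran from 25.5 to 97.5 CPM (median 53.1) in the high ones. All but a pair of the high kidneys (14 of 16) were above every low kidney. The difference was 1.05 ± 0.17 (excess 0.80), and the excess was 0.74 without CC032.

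Ppp1r1a, an inhibitor of protein phosphatase 1, ran from 25.5 to 111.2 CPM (median 71.0) in the low and from 76.4 to 256.7 CPM (median 104.7) in the high kidneys, a difference of 0.80 ± 0.18 (excess 0.56). Ppp1r1b, its relative, differed by 0.76 ± 0.18 at lower levels, with medians of 1.88 and 4.11 CPM. Cldn19, a claudin of the tight junctions that pass calcium and magnesium, had medians of 14.1 and 25.6 CPM and a difference of 0.73 ± 0.20 (excess 0.48). In each of the 3 genes the sides overlapped, although every high kidney stood above the low median of both phosphatase inhibitors.

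The other members, like all list members below beyond the 4 with the largest differences of each list, are named after their values were seen. The potassium channel gene Kcnj1 had medians of 7.76 CPM in the low and 13.1 CPM in the high kidneys (excess 0.40), and 10 of the 16 high kidneys were above every low one. Bsnd, the barttin subunit of the chloride channels, had medians of 38.3 and 58.1 CPM (excess 0.40), and Tmem72, a membrane protein, medians of 79.1 and 107.0 CPM (excess 0.41). Egf, the growth factor precursor, had medians of 475 and 684 CPM (excess 0.34). Smaller excesses belonged to the calcium-sensing receptor Casr (0.22), to Cldn16 (0.14) and to the transcription factor Foxq1 (0.13). Cldn10 and Cldn14 were below the filter, with 3 counts or fewer in all 47 kidneys. Of the 53 list genes below the filter, 44 had more than 1 annotated transcript, against 38 of the 167 that passed, and the authors counted uniquely aligned reads, so that part of the reads of such genes may not have been counted, which was not tested.

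With the score on totals without Lars2 and Mir6236, whose sides had like Rn45s medians, the median excess of the thick ascending limb was 0.41. In the kidneys with under 30% Rn45s it was 0.36, but there the low side held 5 kidneys and had the lower Rn45s median. Without CC032 it was 0.33, and the sides still differed in Rn45s as before. Over all 13 other settings the median excess lay between 0.25 and 0.53. With the score from Aqp2 alone, which does not belong to this segment, it was 0.28.

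**Figure D2:**
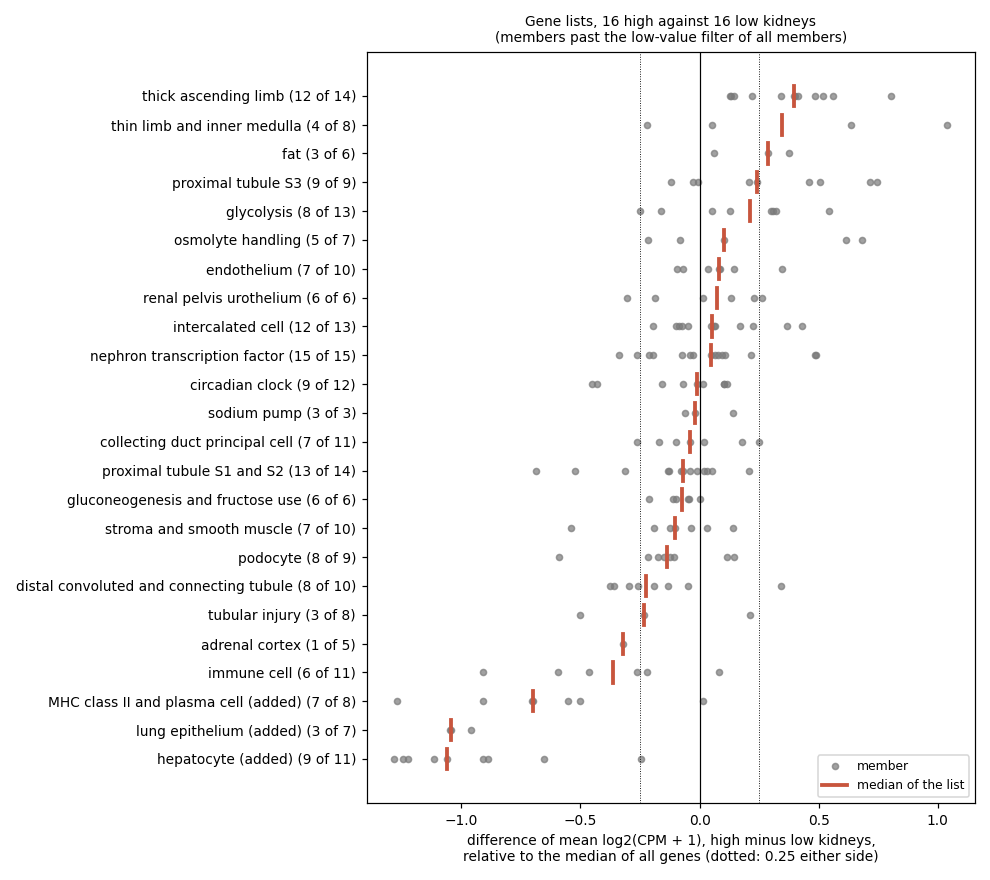
Differences of list members between 16 high and 16 low kidneys on the log2(CPM + 1) scale, relative to the median of all genes, with 1 point for each member past the filter and a bar at the median of each list. The thick ascending limb lies highest with a median of 0.40, and the hepatocyte list lowest with -1.06.

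The thin limb and inner medulla list had a median excess of 0.35, from 4 members of 8, with 2 at least 0.25 above and 0 below. Slc14a2 encodes the urea transporter of the inner collecting duct and thin limb. It ran from 0.70 to 8.44 CPM (median 4.37) in the low kidneys, had a median of 12.6 between, and ran from 2.86 to 85.9 CPM (median 10.9) in the high ones. None of the low kidneys reached the high median, and 10 high kidneys stood above every low one. The kidneys between were as high as the high side. The difference was 1.28 ± 0.35 (excess 1.04), and the largest value was that of CC032, without which the excess was 0.85.

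Bst1, an ectoenzyme that acts on NAD, had medians of 4.78 and 8.90 CPM and a difference of 0.88 ± 0.39 (excess 0.64). The tight junction gene Cldn4 (excess 0.05) and the keratin gene Krt19 (-0.22) stood near or below the median of all genes, and the others, Fst, Cryab and Sptssb among them, were below the filter. The list thus rests on Slc14a2 and Bst1, and without CC032 its median was 0.22, and the excess of Bst1 was 0.43. The list stood at 0.30 among the kidneys with under 30% Rn45s and at 0.45 with the score on totals without Lars2 and Mir6236.

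The osmolyte genes did not behave as a group. Slc5a3, which carries myo-inositol, ran from 327 to 1192 CPM (median 498) in the low kidneys and from 589 to 3010 CPM (median 978) in the high ones, where CC032 had the most. The kidneys between had a median of 990.2 CPM, again as high as the high side. Its difference was 0.86 ± 0.21 (excess 0.61). Slc6a12, whose promoter is printed above, ran from 0.44 to 5.89 CPM (median 1.74) in the low and from 0.41 to 24.6 CPM (median 3.80) in the high kidneys, a difference of 0.93 ± 0.27 (excess 0.68). The sides overlapped for both transporters, and their excesses were 0.52 for Slc5a3 and 0.53 for Slc6a12 without CC032. The taurine transporter gene Slc6a6, with medians of 560.3 and 661 CPM, had an excess of -0.08, the phospholipase gene Pnpla6 one of 0.10 and the kinase gene Sgk1 one of -0.21. Akr1b3 (aldose reductase) and Nfat5 were below the filter. In liver, where Slc6a12 had a median of 98.2 CPM, its log2 fold change between the same mice was 0.11 ± 0.09 in limma (adjusted p of 0.725). In lung, where it had 0.43 CPM, it was not tested. For Slc5a3 the log2 fold changes in limma were -0.14 ± 0.17 in liver and -0.40 ± 0.16 in lung (adjusted p of 0.841 and 0.168).

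The list of segment S3, the straight proximal tubule at the border of the medulla, had a median excess of 0.24, with 4 of 9 members at least 0.25 above and 0 below. Its leading members carry organic anions. Slc22a7 ran from 15.1 to 424 CPM (median 139.6) in the low and from 41.4 to 593 CPM (median 248) in the high kidneys, a difference of 0.99 ± 0.45. Slc22a19 had medians of 103.7 and 189.7 CPM with a difference of 0.96 ± 0.30, and Slc22a13 medians of 40.5 and 65.6 CPM with a difference of 0.75 ± 0.19. Cyp7b1, an oxysterol hydroxylase, had medians of 240 and 363 CPM and a difference of 0.70 ± 0.22. The other 5 members had excesses between -0.12 (Atp11a) and 0.24 (Slc7a13). The list was close to the median of all genes (-0.05) when the kidneys were chosen by Aqp2 alone, and stood at 0.19 among the kidneys with under 30% Rn45s and at 0.21 with the score on totals without Lars2 and Mir6236. The large spread of Slc22a7 went along with that, since its excess was 0.24 in those kidneys and 0.32 with the score on totals without Lars2 and Mir6236.

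**Figure D3:**
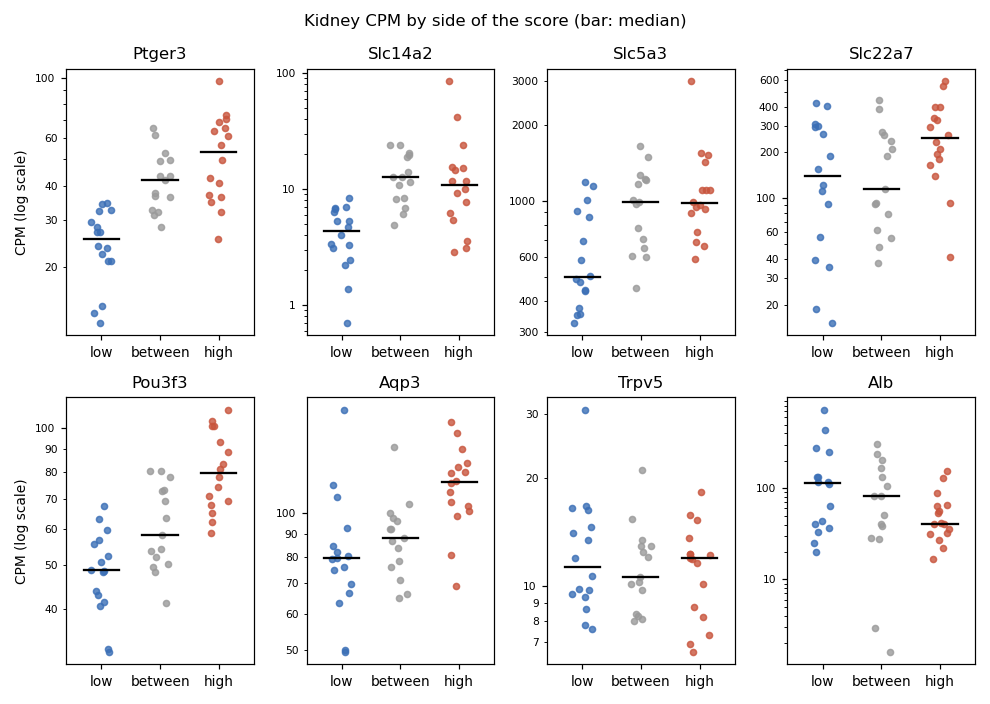
CPM of 8 genes on a log scale in the 16 low kidneys, the 15 between and the 16 high ones, with 1 point for each kidney and a bar at the median. Ptger3 and Pou3f3 are the most separated, with 14 and 13 of 16 high kidneys above every low one, and the sides of Trpv5 lie over each other.

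The transcription factors of the nephron as a list stood at the median of all genes (0.05 from 15 members, 2 above and 2 below by 0.25). Pou3f3, a factor of the loop of Henle and distal nephron, nevertheless ran from 32.1 to 67.2 CPM (median 48.6) in the low and from 58.9 to 109.99 CPM (median 79.6) in the high kidneys, with 13 high kidneys above every low one. Its difference of 0.73 had the small error of 0.10 (excess 0.49). Grhl2, a factor of the distal epithelia, had medians of 10.7 and 17.6 CPM and a difference of 0.73 ± 0.13, with 12 high kidneys above every low one. Hnf4a, a factor of the proximal tubule, had medians of 23.5 and 23.4 CPM (excess -0.03), and Pax2 an excess of -0.34.

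Principal cells of the collecting duct did not stand above other genes, although Aqp2 was in the score. The median excess of the 7 members of 11 that passed was -0.04, with 1 at least 0.25 above and 1 below. The water channel gene Aqp3 ran from 49.5 to 168.6 CPM (median 79.5) in the low and from 69.1 to 158.0 CPM (median 116.7) in the high kidneys, a difference of 0.49 ± 0.13 (excess 0.25). Fxyd4, a regulator of the sodium pump, had low medians of 0.59 and 1.23 CPM (difference 0.42 ± 0.19, excess 0.18), with 13 high kidneys above the low median. The subunits Scnn1a (-0.17) and Scnn1g (0.02) of the epithelial sodium channel and the factors Gata3 (-0.26) and Tfcp2l1 (-0.04) lay near or below the median of all genes. Aqp4, Avpr2, Scnn1b and Elf5 were below the filter. The thick ascending limb list stood above other genes, but 2 of the scoring genes belong to that segment. At least 0.25 above the median of all genes lay 4 of 9 members for segment S3. For the thin limb and inner medulla these were 2 of 4. The label of high medullary content was not tested. When Aqp2 alone chose the kidneys, the principal cell list still stood at 0.02.

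Intercalated cells, the acid and base transporting cells of the same ducts, had a median excess of 0.05 over 12 of 13 members, with 2 at least 0.25 above and 0 below. Slc4a1, the anion exchanger that red cells also make, had medians of 38.9 and 55.6 CPM (difference 0.68 ± 0.20), and the factor Dmrt2 medians of 5.39 and 7.60 CPM (0.61 ± 0.12), with 13 high kidneys above every low one. The proton pump subunit Atp6v1g3 had medians of 30.95 and 39.01 CPM (difference 0.47 ± 0.13, excess 0.22), with 15 high kidneys above the low median, while the subunits Atp6v0d2, Atp6v1b1 and Atp6v0a4 had excesses of -0.05, -0.10 and -0.07. The list stood at -0.06 among the kidneys with under 30% Rn45s.

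Genes of the cortex stood lower than the genes of the limb, by small amounts. In the distal convoluted and connecting tubule the median excess was -0.23 over 8 of 10 members, with 4 at least 0.25 below and 1 above. Trpv5, the calcium channel of this segment, had medians of 11.3 and 11.9 CPM (excess -0.38) and S100g, a calcium-binding protein, medians of 241 and 203 CPM (excess -0.36). Slc12a3, the thiazide-sensitive cotransporter, had medians of 6.74 and 5.48 CPM (excess -0.05), while the sodium and calcium exchanger Slc8a1 went the other way with 5.46 and 8.25 CPM (excess 0.34). The sides overlapped for all of these, and for Slc8a1 14 of 16 high kidneys were above the low median. The list stood at -0.19 among the kidneys with under 30% Rn45s and at -0.02 with the score on totals without Lars2 and Mir6236.

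Podocytes had a median excess of -0.14 over 8 of 9 members, 1 of them at least 0.25 below and 0 above. The slit diaphragm gene Nphs1 had medians of 24.6 and 32.4 CPM (excess 0.11), and Podxl, which encodes the surface sialoprotein podocalyxin, medians of 223 and 237 CPM (excess -0.11). The list stood at -0.05 among the kidneys with under 30% Rn45s and at -0.01 with the score on totals without Lars2 and Mir6236. Segments S1 and S2 of the proximal tubule had a median excess of -0.07 over 13 of 14 members. The bicarbonate cotransporter Slc4a4 (4.54 and 3.32 CPM, excess -0.69), the amino acid transporter subunit Slc7a8 (78.7 and 57.6 CPM, excess -0.52) and Slc7a7 (excess -0.31) lay at least 0.25 below and 0 members above. The phosphate transporter Slc34a3 (33.1 and 46.1 CPM, excess 0.21) and the glucose transporter Slc5a2 (283 and 393 CPM, excess 0.05) stood above the median of all genes. The list was at -0.21 among the kidneys with under 30% Rn45s and at -0.12 with the score on totals without Lars2 and Mir6236. The uptake receptor Lrp2, with medians of 10394 and 12144 CPM, had an excess of 0.03.

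Energy use differs between the zones, since the cortex makes glucose and the medulla burns it. The glycolysis list had a median excess of 0.21 over 8 of 13 members, with 4 at least 0.25 above and 1 below. Pfkl, a subunit of phosphofructokinase, ran from 27.9 to 108.6 CPM (median 68.1) in the low and from 71.0 to 271.9 CPM (median 109.9) in the high kidneys, a difference of 0.79 ± 0.17, with 9 high kidneys above every low one. Pfkp (3.33 and 5.50 CPM) and the hexokinase gene Hk1 (1.98 and 2.95 CPM) had excesses of 0.32 and 0.31. Hk2 had one of 0.30 with a standard error of 0.52, and Eno1 one of -0.25. The list stood at 0.41 among the kidneys with under 30% Rn45s and at 0.05 with the score on totals without Lars2 and Mir6236. The 6 genes of glucose synthesis and fructose use, such as Pck1, Fbp1, G6pc, Khk and Pcx, lay between -0.21 and 0.00. The sodium pump list had a median excess of -0.02 over 3 of 3 members, with Atp1b1 at -0.06 and Fxyd2 at -0.02.

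Lists of other cell types of the kidney are given by their medians and counts. Endothelium stood at 0.08 (7 of 10 members, 1 above and 0 below by 0.25), stroma and smooth muscle at -0.10 (7 of 10, 0 and 1), the urothelium of the pelvis at 0.07 (6 of 6, 1 and 1) and the circadian clock genes at -0.01 (9 of 12, 0 and 2). Fat genes stood at 0.29 (3 of 6, 2 and 0), and their summed level ran from 6.50 to 664 CPM in the low and from 1.38 to 626 CPM in the high kidneys. The pelvic urothelium ran from 5.01 to 53.9 CPM and from 7.27 to 63.6 CPM, so the sides overlapped for both. Among the kidneys with under 30% Rn45s the fat list stood at 1.28 and the urothelium list at 0.62, and with the score on totals without Lars2 and Mir6236 they stood at -0.02 and 0.19. Of the adrenal cortex genes only Star passed (excess -0.32), and the defining gene Mc2r was at 0 in every kidney. The injury genes stood at -0.23 (3 of 8), with Havcr1 below the filter, and the immune cell genes at -0.36 (6 of 11, 0 above and 4 below). Among the kidneys with under 30% Rn45s the immune list stood at -0.11, and with the score on totals without Lars2 and Mir6236 at -0.29.

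Lists of hepatocyte, lung epithelium, and MHC class II and plasma cell genes were added after genes of those kinds appeared among the largest differences, and their direction is no independent evidence. Hepatocyte genes were the lowest of all, with a median excess of -1.06 and 8 of 9 members that passed at least 0.25 below. Alb, the albumin gene, ran from 19.7 to 730.1 CPM (median 114.7) in the low kidneys and from 16.7 to 155.1 CPM (median 40.9) in the high ones, against a median of 68316 CPM in liver. Its excess was -1.24, with a standard error of the difference of 0.43. The sides overlapped, and the highest Alb values were those of CC027 and CC049 on the low side. The summed hepatocyte level ran from 36.9 to 1220 CPM (median 174) on the low and from 29.6 to 252.7 CPM (median 72.6) on the high side.

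The 3 lung epithelium genes that passed, Sftpc, Sftpa1 and Scgb1a1, had excesses of -1.05, -0.96 and -1.04, at summed list levels of 0.82 to 69.9 CPM on the low and 1.88 to 57.8 CPM on the high side, while Cldn18 and Ager were at 3 counts or fewer in all kidneys. In lung, Sftpc had a median of 6683 CPM. Among the kidneys with under 30% Rn45s the lung list stood at -0.02, and the hepatocyte list at -0.59. With the score on totals without Lars2 and Mir6236 they stood at -0.46 and -0.39. The part of RNA from the other organs, or of ribosomal RNA, in these differences was not tested.

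MHC class II and plasma cell genes had a median excess of -0.70, with 6 of 7 members that passed at least 0.25 below. Cd74, the invariant chain, ran from 3.75 to 251.8 CPM (median 14.1) in the low and from 4.30 to 20.7 CPM (median 8.68) in the high kidneys, and its highest value was that of CC016. Jchain, the joining chain of antibodies, had medians of 39.7 and 12.6 CPM and a difference of -1.03 ± 0.61. With Aqp2 as the only scoring gene this list stood at 0.13 and the immune list at 0.07. With Umod and Slc12a1 alone they stood at -0.57 and -0.44.

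**Figure D4:**
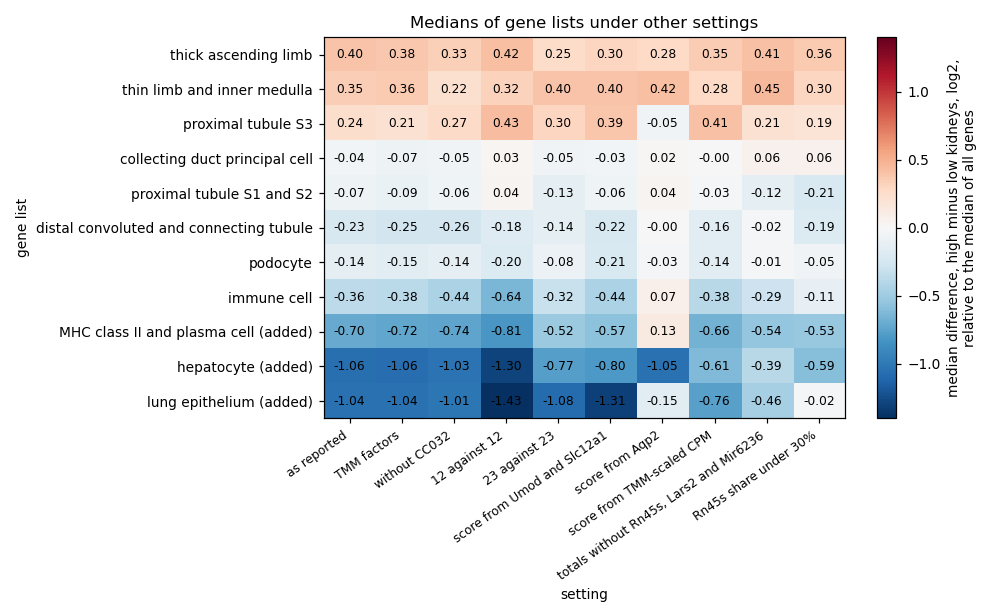
Median excess of 11 gene lists (rows, log2, high minus low kidneys relative to the median of all genes) as reported and under 9 other settings (columns), with each value printed. The thick ascending limb row stays between 0.25 and 0.42, while the lung epithelium row runs from -1.43 to -0.02.

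Of the genes with a mean of at least 10 CPM on their higher side, Ugt2b37, a glucuronosyltransferase, led the higher ones with medians of 200 and 676 CPM and a difference of 1.73 ± 0.90. It ran from 4.58 to 1038 CPM on the low side and from 4.63 to 1390.1 CPM on the high side, and its excess was 0.29 among kidneys with under 30% Rn45s. Naaladl1, a peptidase, had medians of 0.80 and 2.19 CPM and a difference of 1.73 ± 0.54, resting on a few kidneys with up to 47.3 CPM. Ttr, the transthyretin gene, had medians of 60.3 and 195 CPM and a difference of 1.46 ± 0.78, with an excess of -0.02 when 12 kidneys a side were compared.

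Fcgbp, a mucin-like secreted protein, had medians of 5.67 and 16.5 CPM (1.38 ± 0.44), and Gdpd3, a lysophospholipase D, medians of 4.37 and 12.0 CPM (1.37 ± 0.36), with all 16 high kidneys above the low median. The difference of Gdpd3 was 0.64 in liver and 0.80 in lung of the same mice. The complement gene Cfb differed by 1.25 ± 0.63 in kidney, 1.25 in liver and 0.74 in lung, and Gm20594 by 1.26 ± 1.24, 1.17 and 1.405. For Gm20594 the kidney medians, 1387 CPM in the low and 1269.7 CPM in the high kidneys, ran against the difference of means. None of these 3 genes was called in liver or lung. In limma the adjusted p of Cfb was 0.489 in liver and 0.111 in lung, that of Gm20594 0.822 and 0.286, and that of Gdpd3 0.449 in lung, while Gdpd3 was not tested in liver. The other higher genes were Slc14a2, Tnn (tenascin N, 4.27 and 14.3 CPM) and Cyp2d12 (a cytochrome P450, 9.23 and 24.6 CPM).

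The lower genes were led by Mir6236 (195 and 72.1 CPM) and Lars2 (253945 and 81721 CPM). Over the 47 kidneys the share of Lars2 correlated with that of Rn45s (r of 0.95). Among kidneys with under 30% Rn45s, Lars2 had an excess of 0.18 and Mir6236 one of -0.69. BC018473 (54.7 and 11.3 CPM) and the pseudogene H2-Ea-ps (2.62 and 0.00 CPM) differed by -1.28 ± 1.12 and -1.09 ± 0.92, with differences of -0.90 and -0.98 in lung, where neither was called (adjusted p in limma of 0.909 and 0.406). Over the 47 mice their kidney levels correlated with those in liver (r of 0.90 for BC018473 and 0.91 for H2-Ea-ps) and lung (0.94 and 0.93). The excess of BC018473 was 0.46 when Aqp2 alone chose the kidneys. Nat8f6, an acetyltransferase, had medians of 32.5 and 7.06 CPM (-0.94 ± 0.57). The other lower genes were Jchain and the hepatocyte genes Alb, Mat1a, Mug1 and Cps1.

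Whether the mice with high kidneys also differed elsewhere was tested in their liver and lung libraries with limma-voom and Benjamini-Hochberg adjustment over all genes of each tissue (q of 0.1 or less, 16 against 16 mice). In liver 1 of 10111 genes passed (0.00989%), and 945 (9.35%) had an unadjusted p under 0.05. Atg101, a subunit of the complex that starts autophagy, ran from 6.38 to 31.9 CPM (median 17.7) in the low and from 10.6 to 50.01 CPM (median 31.4) in the high mice. It was above the low median in 14 of 16 high mice, with a log2 fold change of 0.49 ± 0.09 and an adjusted p of 0.0736 in limma. The lower genes with the smallest adjusted p in limma, Lonrf1 (log2 fold change -1.05 ± 0.22, adjusted p of 0.188) and Nkrf (-0.45 ± 0.10, adjusted p of 0.258), did not pass.

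In lung 10 of 13258 genes passed (0.0754%), 9 of them higher and 1 lower in the high mice, and 2621 (19.8%) had an unadjusted p under 0.05. Lrg1, a glycoprotein of the acute phase response, rose the most of those named, from a median of 14.3 CPM (5.75 to 43.4) in the low to 36.1 CPM (10.1 to 130.4) in the high mice. Its log2 fold change was 1.36 ± 0.28, and 14 of 16 high mice were above the low median. Rbpjl, a transcription factor related to the effector of Notch, rose by 0.65 ± 0.13 on the log2 scale, with medians of 16.9 and 27.3 CPM. Cox10, an enzyme of heme A synthesis, rose by 0.37 ± 0.07 and Coasy, coenzyme A synthase, by 0.34 ± 0.07. Ppp4r2, a regulatory subunit of protein phosphatase 4, fell by 0.28 on the log2 scale. The adjusted p in limma was 0.0675 for each of the higher genes named and 0.0776 for Ppp4r2.

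**Figure D5:**
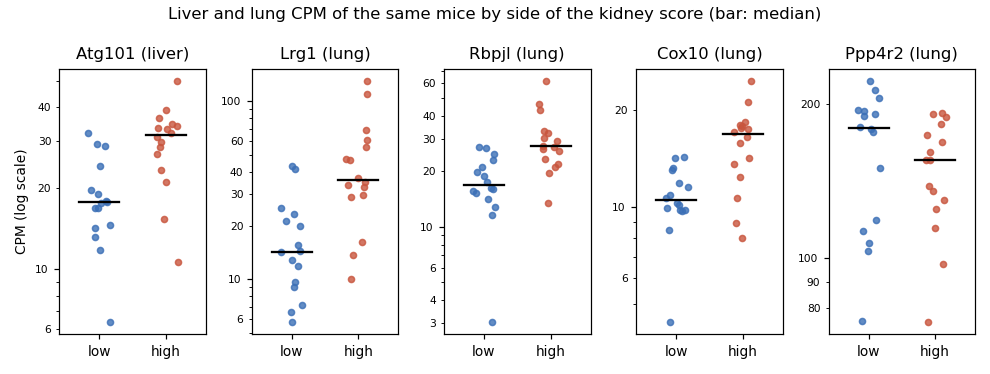
CPM on a log scale of 1 liver gene and 4 lung genes in the 16 mice with low and the 16 with high kidneys, with 1 point for each mouse and a bar at the median. The sides overlap in every panel, and the lung median of Lrg1 is 14.3 CPM in the low and 36.1 CPM in the high mice.

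Without CC032 limma called 0 genes in either tissue, with a smallest adjusted p of 0.12 in liver and 0.109 in lung, while 870 and 2522 genes had an unadjusted p under 0.05. The log2 fold changes were then 0.49 for Atg101 and 1.35 for Lrg1, near those with CC032. Of the 10 lung genes, 10 were also called with DESeq2 size factors and 10 with the score over all 47 mice. With all 16 high mice, edgeR called 2 genes in liver and 0 in lung (2102 at an unadjusted p under 0.05), and DESeq2 15 and 521, with 8 of the 10 lung genes among them. Rn45s shares of these libraries also differed, with medians of 41.97% and 18.1% in liver and 36.2% and 18.2% in lung, and with that share as a covariate 0 genes passed in liver (773 at an unadjusted p under 0.05) and 667 in lung, among them the 10. The difference between the effects in lung and liver was tested over 9593 genes, and limma called 0 of them, with 853 at an unadjusted p under 0.05.

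The genes of the lists were followed in the other organs as well. Of the 222 list genes 104 were tested in liver and 144 in lung, and limma called 0 in each, as did edgeR. DESeq2 called 0 in liver and 4 in lung (Col1a1, Lcn2, Serpina3k and Sftpb). At an unadjusted p under 0.05 in limma were 19 members in liver (18.3%, against 9.35% of all genes) and 23 in lung (15.97%, against 19.8%), with 19 and 20 in edgeR and 17 and 22 in DESeq2. In liver these included 5 of 8 circadian clock genes. They also included 3 of 4 lung epithelium genes and 3 of 7 MHC class II and plasma cell genes, from lists added after values were seen. The median log2 fold changes of these 2 lists were -1.07 and -0.67 in liver, and 0.14 and -0.07 in lung. The hepatocyte list, also added, stood at -1.17 in lung (2 of 8 at an unadjusted p under 0.05 in limma) and -0.02 in liver. The thick ascending limb had 1 of 3 and principal cells 0 of 2. The 3 genes of the thick ascending limb measured in liver had a median log2 fold change of -0.59, and the 6 in lung one of 0.33, with 0 called in either.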

How the data were processed

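The authors aligned single-end reads of ribosome-depleted total RNA with STAR 2.5.3a to genomes made for each strain from Build37 with RefSeq genes, and RSEM estimated an expected count and a TPM per gene (24423 genes) in every library. The expected counts deposited by the authors were rounded for the tests, and the TPM values deposited by the authors served as an alternative. The members and the gene lists were chosen with earlier results of these data known, and 3 lists were added after values were seen.

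Kidney differences used log2(CPM + 1) of genes that exceeded 1 CPM in 30% or more of the libraries, without Rn45s and the scoring genes. A value of 3 counts or fewer was taken as not resolved, at 0.211 to 1.50 CPM by library, which covers counting error only. Liver and lung were tested with limma 3.58.1 voom after TMM scaling in edgeR 4.0.16 (R 4.3.3), with Benjamini-Hochberg adjustment, and p-values measure the spread between single mice of different strains. Both steps were tested on simulated data. Alternatives used DESeq2 1.42.0, edgeR's quasi-likelihood test, other scalings, pseudocounts, filters, side sizes and scores. Scores on totals without Lars2 and Mir6236, the limit on Rn45s, its use as a covariate, leaving out CC032 and the 0.25 rule were chosen after seeing the data.

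Named genes were the 10 largest differences per direction with at least 10 mean CPM on the higher side, in each list the 4 largest (all members without overlap had there been any), and in liver and lung the 5 smallest adjusted p per direction, or 2 where none passed. Promoters came from RefSeq tables, for 27025 gene symbols. Library batches are not among the labels. Python 3.11.15 was used. Some genes that the rule names are not reported here.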

Additional observations from a re-analysis of the deposited data

How the results depend on the processing

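The kidney count of 38 genes past 2-fold became 67 with log2(TPM + 1), 149 with log2(CPM + 0.1), 59 with 12 kidneys a side, 17 with 23 a side, 24 with Aqp2 alone, 21 with the score on TMM-scaled CPM, 19 with totals without Rn45s, Lars2 and Mir6236, and 86 under 30% Rn45s. Of the 0 genes without overlap, 4 appeared with 12 a side and 10 under 30% Rn45s, where only 5 low kidneys remained. With Aqp2 alone the differences of BC018473 (0.69), Jchain (0.019) and Gm20594 (-0.12) changed sign, and that of Lars2 did so with the score on TMM-scaled CPM (0.46) and under 30% Rn45s (0.19). The single liver call became 2 with edgeR, 15 with DESeq2, 15 with the score over 47 mice, and 0 without a low-count filter, with an added log2 fold change of 1 at q of 0.1 or 0.01, with 12 a side, with Aqp2 alone, without CC032 and with Rn45s as a covariate. The 10 lung calls became 24 with DESeq2 size factors, 521 with DESeq2, 533 with the score over 47 mice, 19 with Umod and Slc12a1, 667 with Rn45s as a covariate, 2 with Aqp2 alone, 1 each with 12 or 23 a side and with an added log2 fold change of 1, and 0 with edgeR, without a low-count filter, at q of 0.01 with that fold and without CC032. The cause was not tested. Of the values for single genes and lists under other settings, 1682 counted as the same. For kidney genes and lists this meant a move within the spread between kidneys, so that small values could change sign. The circadian clock list kept its sign in 6 of 13 settings. For liver and lung genes it meant the same direction and side of the threshold. Of the rest, 55 values no longer passed the threshold, 2 newly passed it, 8 moved by more than the spread and 5 reversed. Genes at few counts, at or under the floor of 3 counts, are not resolved. No paired analysis was possible because the high and low sides are different mice.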
